A study of Rattus norvegicus with 24 samples.

Results

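The Egr genes encode a small family of zinc finger transcription factors, and all 4 of them, Egr1 (ENSRNOG00000019422), Egr2 (ENSRNOG00000000640), Egr3 (ENSRNOG00000017828) and Egr4 (ENSRNOG00000015719), were followed through 24 RNA-seq libraries of cultured rat cortical cells. The members were fixed by gene ID, with earlier results of these data known. They are 4 of the 32754 gene rows of the count table, and all 4 were among the 15908 genes that passed the filter on low counts. The study grew cortical neurons for 8 days and exposed them either to medium with 250 μM glutamate, the transmitter that kills neurons in excess (excitotoxicity), or to fresh growth medium, and imaged them for 4 h. Each of these 2 conditions was run with IS141, AH609, AH236 or DMSO. The 8 groups were therefore IS141 with glutamate, IS141 with medium, AH609 with glutamate, AH609 with medium, AH236 with glutamate, AH236 with medium, DMSO with glutamate and DMSO with medium, with 3 libraries in each. The labels give no strain, age, dose or time of addition for these groups, do not say what the 3 coded agents are, and do not say when RNA was taken. Nothing states that the 3 libraries of a group were separate cultures, so each test is set against the variation among the libraries at hand, and part of that may be technical.

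Egr genes are immediate early genes: their transcription is switched on within minutes of a stimulus from factors already present in the cell. In cortical neurons, calcium entering through glutamate receptors activates the ERK kinase cascade and the factors SRF, Elk-1 and CREB at their promoters, and the Egr proteins then bind GC-rich sites in later target genes such as Arc. Egr1 is the most studied member in the brain and is needed in mice for late synaptic potentiation. Egr2 is known for hindbrain patterning and for myelination by Schwann cells. Egr3 is needed in mice for muscle spindles and acts in neurons beside Egr1. Egr4 is less well understood and is needed in mice for male germ cell maturation.

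Because glutamate moved all 4 genes by different factors, the 250 bases before the annotated start are shown for the 3 members present in the RefSeq promoter table (build GRCr8). They lie at chr18:26736828-26737077 on the plus strand for Egr1, at chr20:21054442-21054691 on the minus strand for Egr2 and at chr4:119607818-119608067 on the minus strand for Egr4. Egr3 is named only. Sequences run 5′ to 3′ on the gene's strand, and capitals mark CArG boxes, the motif bound by SRF, and the short form of the cAMP response element, TGACG on either strand, which CREB binds.
Egr1: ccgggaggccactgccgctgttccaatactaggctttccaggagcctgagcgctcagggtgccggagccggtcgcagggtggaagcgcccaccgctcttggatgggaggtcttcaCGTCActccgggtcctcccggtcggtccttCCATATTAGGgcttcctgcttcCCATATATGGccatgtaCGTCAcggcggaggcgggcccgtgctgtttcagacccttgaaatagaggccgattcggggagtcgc
Egr2: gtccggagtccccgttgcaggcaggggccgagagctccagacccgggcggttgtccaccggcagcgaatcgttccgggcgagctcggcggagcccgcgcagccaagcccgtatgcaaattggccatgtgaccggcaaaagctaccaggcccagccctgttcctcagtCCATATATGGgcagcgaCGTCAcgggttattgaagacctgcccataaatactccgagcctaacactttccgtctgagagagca
Egr4: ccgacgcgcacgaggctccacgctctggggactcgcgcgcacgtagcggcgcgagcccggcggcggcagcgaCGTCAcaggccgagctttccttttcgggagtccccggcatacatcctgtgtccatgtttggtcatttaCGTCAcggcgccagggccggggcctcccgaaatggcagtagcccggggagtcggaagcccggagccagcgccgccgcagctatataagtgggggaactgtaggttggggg
The GC content of these stretches was 63.2% for Egr1, 62.0% for Egr2 and 68.0% for Egr4. Positions below are counted from the start, with negative numbers before it. Egr1 held 2 CArG boxes, at -105 to -96 and -83 to -74, and 2 short cAMP elements, at -135 to -131 and -66 to -62. Egr2 held 1 CArG box at -83 to -74 and 1 short cAMP element at -66 to -62, the same positions as in Egr1. It also held 1 Ets core (CCGGAA) at -179 to -174, the motif bound by Elk-1 and its relatives. Egr4 held no CArG box within these letters and 2 short cAMP elements, at -178 to -174 and -110 to -106. None of the 3 stretches held the full element TGACGTCA or the Egr protein's own site GCGNGGGCG. Over 33469 promoters of the same length, read on both strands, 1.5% held a CArG box and 0.0209% held at least 2. A short cAMP element was held by 18.2% and at least 2 by 3.98%, counting those inside the full element. The full element was held by 1.59%, the Egr site by 4.29% and the Ets core by 12.6%. These matches describe letters only.

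**Figure D1:**
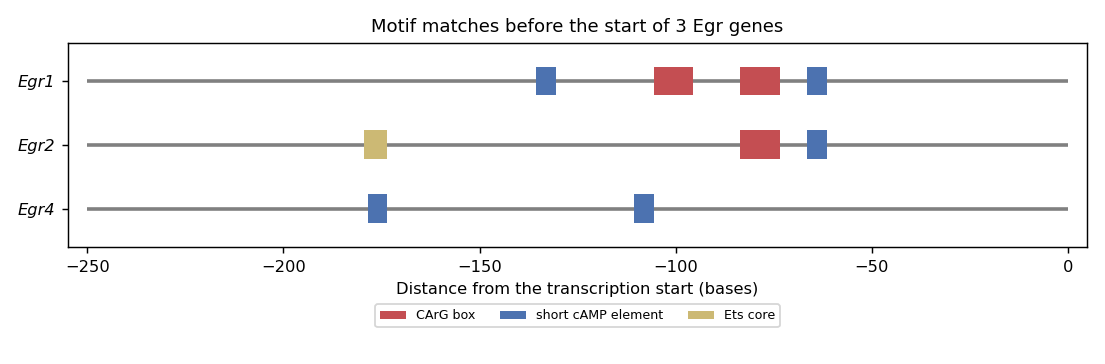
Motif matches in the 250 bases before the start of Egr1, Egr2 and Egr4 (one line per gene, distance from the start in bases; coloured boxes are matches on either strand). The CArG box at -83 to -74 and the short cAMP element at -66 to -62 line up in Egr1 and Egr2, and Egr4 shows short cAMP elements alone.

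Library totals ran from 22509400 to 35496447 counts. The first principal component of log2 CPM (CPM, counts scaled to a common library size by TMM, which adjusts for differences in composition) took 69.9% of the variance and set glutamate libraries (39.9 to 52.1) apart from medium libraries (-58.8 to -38.6). Replicate 1 of DMSO in medium stood apart on the second component, at -48.0 where the other libraries lay between -12.8 and 19.7. This library is a control in several comparisons, and values without it are given beside them. The share of all tested genes called without it is not given here, so calls gained or lost that way are not set against all genes. The gene files pair no ID with a symbol, so the cell type markers and the pathway lists could not be read and the labelled cell type was not checked. In bulk RNA, a change in how many cells of a type are present cannot be told apart from a change in RNA per cell.

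All 4 Egr genes were higher with glutamate than with medium in each of the 4 treatments. Over the 4 treatments together the log2 fold change was 4.48 ± 0.09 (SE) for Egr2, 3.71 ± 0.05 for Egr4, 2.28 ± 0.06 for Egr1 and 1.37 ± 0.09 for Egr3, or 22.3-fold, 13.1-fold, 4.86-fold and 2.59-fold. The adjusted p-values from edgeR's quasi-likelihood test were 5.36e-20, 3.24e-25, 4.86e-19 and 8.11e-11 in that order of genes. Glutamate changed much of the transcriptome: 38.8% of the tested genes were called higher in this comparison, at an adjusted p under 0.05. Every glutamate library lay above every medium library for all 4 members and for 16.7% of tested genes. A rise as such was therefore common, and its size was less so, since 8.61% of tested genes were called and at least 2-fold higher, 2.68% at least 4-fold, 1.16% at least 8-fold and 0.465% at least 16-fold. Ranked by fold change among 15908 genes, Egr2 was 50th from the top, Egr4 96th, Egr1 340th and Egr3 901st. The median log2 fold change was 2.99 over the 4 members and 0.00 over all tested genes. Scaling by library totals alone moved the median of all genes to -0.19, and the members' changes are to be read against that shift.

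Egr1 was measured with deep counts in every library, from 2415 to 4015 reads with glutamate and from 461 to 1222 with medium. With IS141 its level was 119, 144 and 146 CPM in glutamate, against 38.04, 38.9 and 45.7 CPM in medium. With AH609 it was 119.9, 128 and 119 CPM in glutamate, against 18.4, 22.4 and 24.3 CPM in medium. In glutamate 2 of the 3 IS141 libraries lay above every AH609 library and the groups overlapped, while in medium the 3 IS141 libraries lay well above those of AH609. With AH236 Egr1 stood at 115, 111 and 116 CPM in glutamate, against 16.96, 17.3 and 17.5 CPM in medium. With DMSO it stood at 121, 112 and 105 CPM in glutamate, against 29.3, 19.7 and 25.6 CPM in medium. Every glutamate library was above every medium library, by more than 2-fold between the nearest values, and the 3 AH236 medium libraries were the lowest of all. The log2 fold change of glutamate over medium was 1.74 ± 0.11 (SE) with IS141, 2.49 ± 0.12 with AH609, 2.72 ± 0.12 with AH236 and 2.17 ± 0.11 with DMSO.

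Egr2 was nearly silent in medium, with 38 to 174 reads a library, and had 1291 to 1920 reads with glutamate. With IS141 its level was 58.5, 57.0 and 50.1 CPM in glutamate, against 4.66, 5.09 and 6.51 CPM in medium. With AH609 it was 66.5, 62.2 and 57.0 CPM in glutamate, against 2.00, 2.12 and 2.96 CPM in medium. As for Egr1, the medium values were highest with IS141. With AH236 Egr2 stood at 61.6, 65.9 and 66.8 CPM in glutamate, against 1.50, 1.56 and 1.48 CPM in medium. With DMSO it stood at 49.8, 52.3 and 49.9 CPM in glutamate, against 3.78, 1.36 and 1.84 CPM in medium. DMSO replicate 1 in medium, the library that stood apart, lay well above both other DMSO medium libraries. The fold of glutamate over medium was the largest of the family in every treatment, at 10.2 with IS141, 26.2 with AH609, 42.6 with AH236 and 21.7 with DMSO. On the log2 scale these were 3.35 ± 0.16 (SE), 4.71 ± 0.19, 5.41 ± 0.19 and 4.44 ± 0.18, and the DMSO value was 4.96 without the library that stood apart.

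Egr3 changed least. With IS141 its level was 66.3, 70.4 and 60.3 CPM in glutamate, against 32.6, 28.3 and 34.5 CPM in medium. With AH609 it was 76.9, 75.7 and 69.6 CPM in glutamate, against 27.5, 29.7 and 24.1 CPM in medium. The IS141 and AH609 medium values overlapped, unlike those of Egr1 and Egr2. With AH236 Egr3 stood at 83.3, 79.1 and 90.1 CPM in glutamate, the 3 highest values of all 24 libraries, against 23.2, 25.4 and 23.1 CPM in medium. With DMSO it stood at 56.1, 63.5 and 54.5 CPM in glutamate, against 14.9, 29.1 and 32.8 CPM in medium. Here DMSO replicate 1 in medium was the lowest of the 24 libraries, the opposite of its place for Egr2. The log2 fold change was 1.05 ± 0.18 (SE) with IS141, 1.45 ± 0.18 with AH609, 1.82 ± 0.18 with AH236 and 1.18 ± 0.18 with DMSO, and the DMSO value was 0.90 without that library. The biological coefficient of variation of Egr3 was 15.1% with all libraries and 6.55% without DMSO replicate 1 in medium, and that of Egr2 was 13.7% and 5.86%, so the errors given for both genes include the deviation of this library in every comparison.

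Egr4 had a biological coefficient of variation of 7.68% with all libraries and 6.96% without DMSO replicate 1 in medium. With IS141 its level was 236, 264 and 262 CPM in glutamate, against 28.1, 26.8 and 31.8 CPM in medium. With AH609 it was 287, 292 and 265 CPM in glutamate, against 21.8, 17.2 and 18.2 CPM in medium. The IS141 medium libraries again lay above those of AH609. With AH236 Egr4 stood at 282, 249 and 299 CPM in glutamate, against 16.6, 16.03 and 17.6 CPM in medium. With DMSO it stood at 235, 263 and 223 CPM in glutamate, against 15.4, 18.4 and 19.4 CPM in medium. The lowest glutamate library exceeded the highest medium library about 7-fold. The log2 fold change was 3.13 ± 0.10 (SE) with IS141, 3.89 ± 0.10 with AH609, 4.05 ± 0.10 with AH236 and 3.76 ± 0.10 with DMSO.

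**Figure D2:**
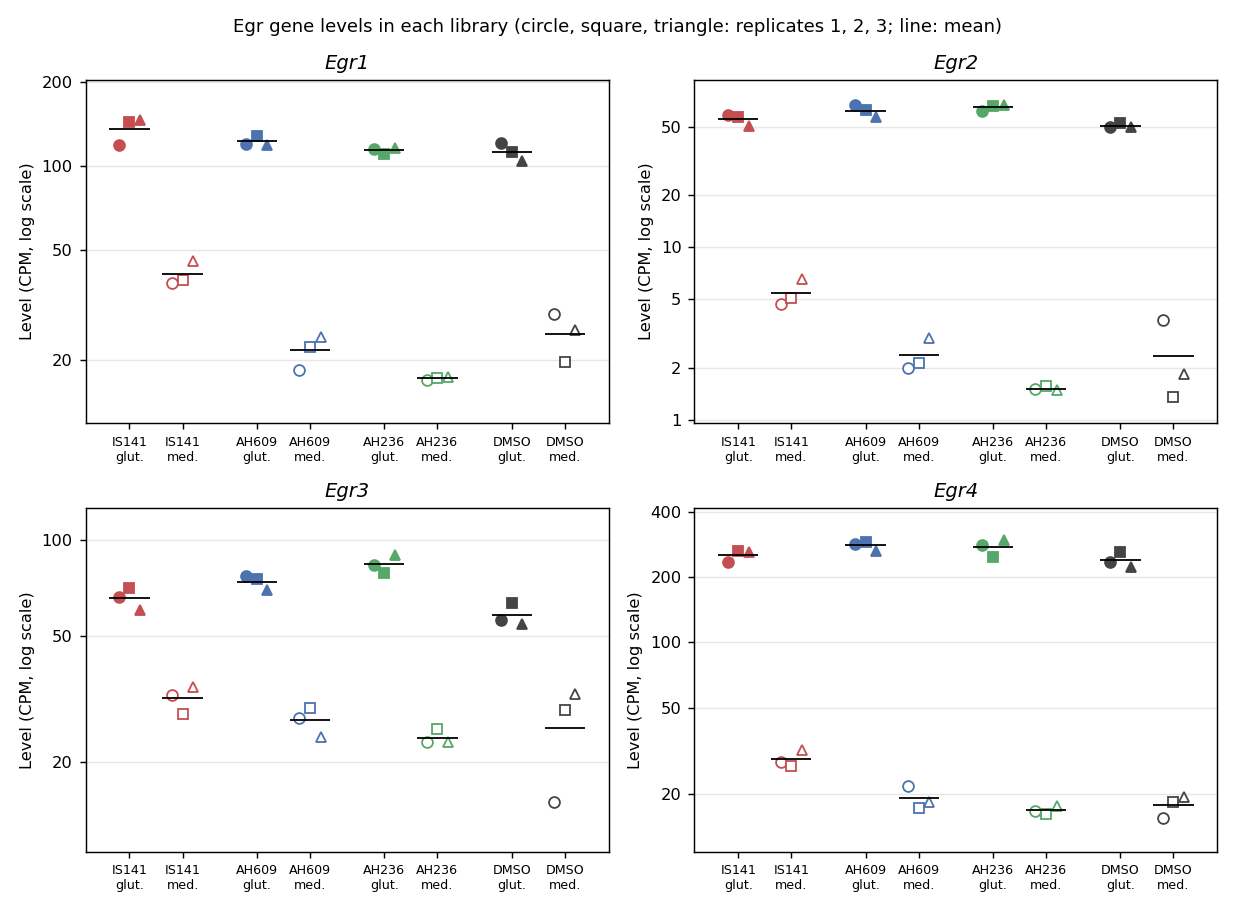
Level of each Egr gene in each of the 24 libraries (CPM after TMM scaling, log axis; filled points are glutamate, open points medium; colours are treatments; circle, square and triangle are replicates 1, 2 and 3; lines are group means). Glutamate libraries lie above medium libraries for each gene, and the open DMSO circle lies high in its group for Egr1 and Egr2 and low for Egr3 and Egr4.

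Within single treatments the 4 genes were called higher with glutamate at adjusted p-values from 1.96e-17 (Egr4) to 6.04e-05 (Egr3) with IS141, from 8.49e-19 to 1.59e-06 with AH609, from 2.7e-19 to 7.65e-08 with AH236 and from 1.5e-18 to 1.89e-05 with DMSO. The share of tested genes called higher was 28.9% with IS141, 30.1% with AH609, 29.5% with AH236 and 28.6% with DMSO. The order Egr2, Egr4, Egr1, Egr3 by fold change was the same in the 4 treatments, as the plot of fold changes by treatment shows. The 4 genes together summed to 483 ± 29.0 CPM, here without TMM scaling, with IS141 and glutamate against 116 ± 10.8 with IS141 and medium (SD, n = 3 in each group here). With AH609 the sum was 506 ± 19.2 in glutamate against 74.1 ± 0.967 in medium. The corresponding sums were 489 ± 26.3 against 61.9 ± 2.50 with AH236, and 441 ± 21.9 against 76.6 ± 8.80 with DMSO. These sums weight the members by how many reads each yields and are not a comparison of levels between genes, for which no gene lengths were at hand.

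**Figure D3:**
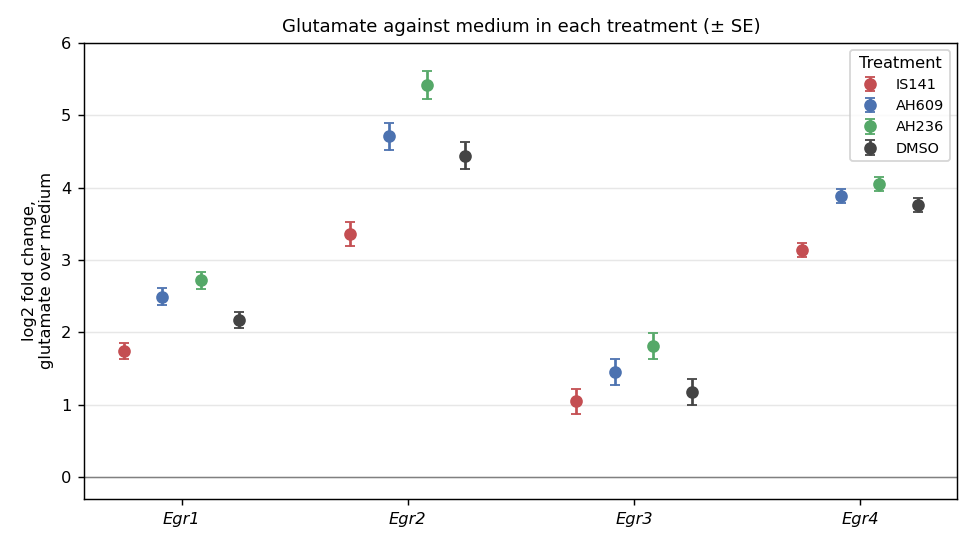
Log2 fold change of glutamate over medium (vertical axis, ± SE) for each Egr gene, one point per treatment. Egr2 has the largest change and Egr3 the smallest in each treatment, and within each gene IS141 has the lowest point and AH236 the highest. Without DMSO replicate 1 in medium, Egr3 had 0.90 with DMSO and 1.04 with IS141, the reverse order.

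The different factors by which the genes rose were tested with ratios of 2 members within each library, which do not depend on scaling. The ratio of Egr2 to Egr3 counts was 0.740 to 0.915 over the 12 glutamate libraries and 0.0472 to 0.254 over the 12 medium libraries. It was thus 8.69-fold higher with glutamate (log2 difference 3.12, two-sided exact permutation test within treatments, p = 1.25e-05, the smallest the design allows, adjusted p = 1.875e-05 over 6 pairs of genes). The highest medium ratio, 0.254, was that of DMSO replicate 1. The ratio of Egr4 to Egr3 was 4.98-fold higher, that of Egr2 to Egr1 4.68-fold and that of Egr4 to Egr1 2.68-fold, each with the same exact permutation p of 1.25e-05 and with no overlap between glutamate and medium libraries. The remaining pairs changed less. The Egr1 to Egr3 ratio was 1.86-fold higher (log2 difference 0.89, exact permutation p = 3.75e-05, adjusted p = 4.5e-05) and the Egr2 to Egr4 ratio 1.75-fold higher (0.80, exact permutation p = 0.000325, adjusted p = 0.000325), and for both pairs the ranges of glutamate and medium libraries overlapped. Within single treatments the mean log2 ratio of Egr2 to Egr4 was -2.20 with glutamate and -2.42 with medium for IS141, with overlapping ranges, and -2.09 with glutamate and -3.45 with medium for AH236, without overlap. The change of this ratio with IS141 was within the spread of its libraries.

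**Figure D4:**
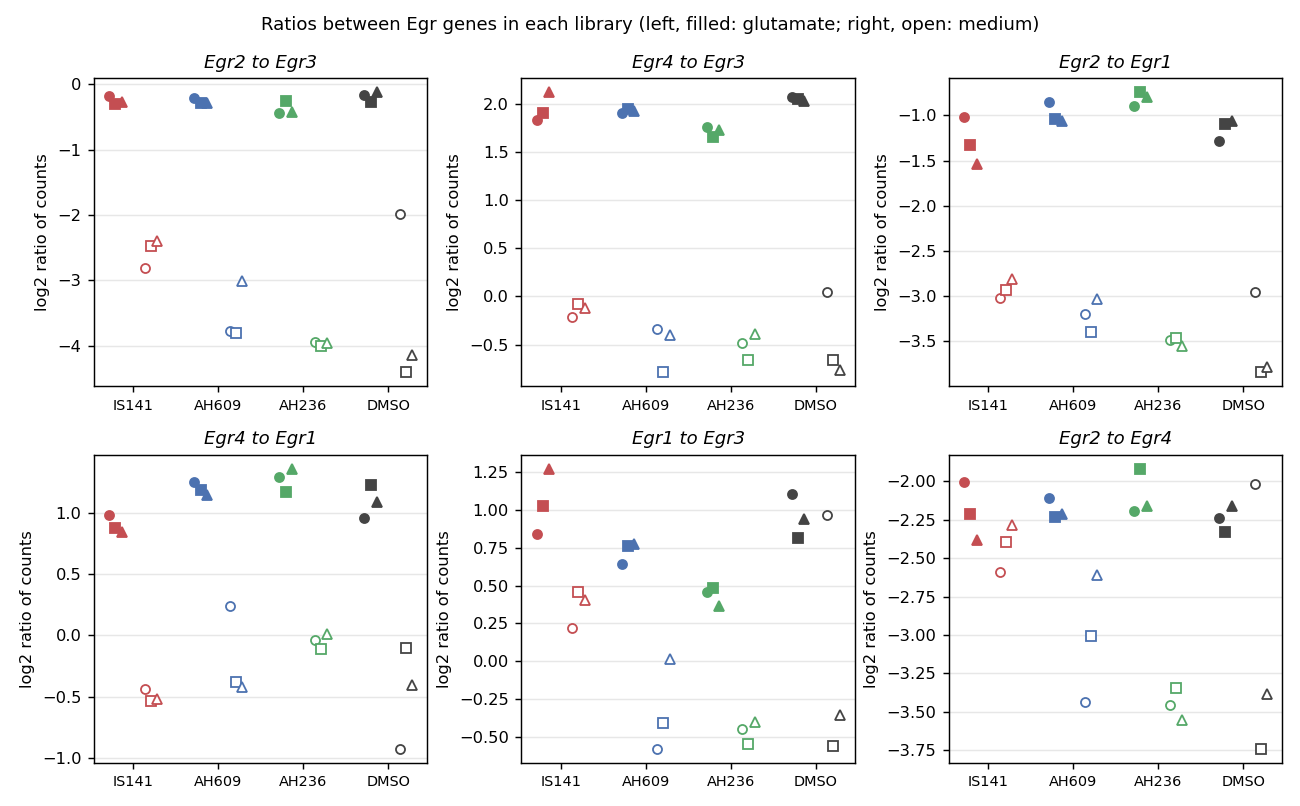
Log2 ratio of the counts of 2 Egr genes in each library (6 pairs; filled points on the left of each treatment are glutamate, open points on the right medium). The Egr2 to Egr3 panel shows the largest mean difference, and the open DMSO circle (replicate 1) is the medium library nearest to the glutamate values there.

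With IS141 and medium, 3 of the 4 genes were higher than with DMSO and medium, where 7.98% of tested genes were called in either direction. Egr2 was higher by a log2 fold change of 1.21 ± 0.22 (SE, adjusted p = 0.0021, edgeR), Egr1 by 0.71 ± 0.11 (adjusted p = 0.000511) and Egr4 by 0.71 ± 0.10 (adjusted p = 8.8e-05). For these 3 genes each IS141 medium library lay above each of the other 9 medium libraries, as for 2.62% of tested genes. Egr3 had a log2 fold change of 0.31 with a 95% interval of -0.08 to 0.70 (adjusted p = 0.344) and was not called. Without DMSO replicate 1 in medium the values were 1.74 for Egr2, 0.84 for Egr1, 0.62 for Egr4 and 0.04 for Egr3, with the same 3 genes called. When only the compared groups entered the fit, Egr1 (0.72, adjusted p = 0.0987) and Egr2 (1.23, adjusted p = 0.213) were no longer called. On the first component the IS141 medium libraries lay at -41.9, -39.8 and -40.4, nearer to the glutamate libraries than AH609 (-51.7, -52.8 and -45.4), AH236 (-55.1, -49.2 and -53.9) or DMSO replicates 2 and 3 (-58.8 and -58.0), while DMSO replicate 1 lay at -38.6. The part of this wider shift in the Egr levels was not tested.

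With AH609 and medium no Egr gene differed from DMSO and medium past the threshold. None of the 4 genes was called by edgeR, where 3.06% of tested genes were called. None had an unadjusted p under 0.05 (16.1% of all tested genes had), and DESeq2 called 0 of the 4 and 683 genes in all. The log2 fold change of AH609 over DMSO was -0.20 for Egr1 (95% interval -0.45 to 0.05), 0.02 for Egr2 (-0.53 to 0.57), 0.08 for Egr3 (-0.31 to 0.47) and 0.10 for Egr4 (-0.11 to 0.31). The interval of Egr2 is too wide to show that the levels were alike, and without DMSO replicate 1 its value was 0.55 (adjusted p = 0.133). Egr3 had -0.19 without that library, Egr1 -0.066 and Egr4 0.011, none of them called.

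With AH236 and medium, 1 of the 4 genes was lower than with DMSO and medium, where 10.5% of tested genes were called. Egr1 was lower by a log2 fold change of -0.53 ± 0.12 (SE, adjusted p = 0.00662, edgeR), and its 3 AH236 libraries lay below the 3 DMSO libraries, as for 11.1% of tested genes. This call ended without DMSO replicate 1 (-0.40, adjusted p = 0.0505) and with the compared groups alone (-0.53, adjusted p = 0.129). Egr2 had -0.62 (95% interval -1.19 to -0.05, adjusted p = 0.166), which was -0.093 without DMSO replicate 1 and -0.87 without DMSO replicate 2 (adjusted p = 0.0204). Egr3 had -0.10 (adjusted p = 0.787), and -0.38 without DMSO replicate 1 (adjusted p = 0.0111). Egr4 had -0.08 (95% interval -0.29 to 0.12, adjusted p = 0.665), and -0.18 without DMSO replicate 1 (adjusted p = 0.372). The values of Egr1, Egr2 and Egr3 against DMSO in medium thus turned on which DMSO library was kept.

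With glutamate present, no Egr gene was called for any agent against DMSO by edgeR. The share of tested genes called was 8.46% for IS141, 2.62% for AH609 and 10.3% for AH236. At an unadjusted p under 0.05 the counts were 1 of 4 genes for IS141, 2 for AH609 and 3 for AH236, against 23.5%, 15.5% and 23.5% of all tested genes for these agents. DESeq2 called 0, 0 and 1 of the 4, and 1494, 534 and 1753 genes in all. With IS141 the log2 fold change was 0.28 for Egr1 (adjusted p = 0.11), and 0.12, 0.18 and 0.08 for Egr2, Egr3 and Egr4. With AH609 it was 0.12, 0.29, 0.35 and 0.23 for Egr1 to Egr4, and the AH609 libraries of Egr2, Egr3 and Egr4 lay above the DMSO libraries without overlap, as did 11.2% of tested genes. With AH236 it was 0.02 for Egr1, 0.35 for Egr2, 0.54 ± 0.17 (SE) for Egr3 (95% interval 0.18 to 0.90, adjusted p = 0.0551) and 0.20 for Egr4, and the libraries of Egr2 and Egr3 lay above DMSO without overlap, as did 15.8% of tested genes. Leaving out DMSO replicate 1 in medium, which is in none of the groups compared here but enters the shared estimate of the spread, Egr2 and Egr3 were called for AH609 (adjusted p = 0.0166 and 0.00665) and for AH236 (0.00113 and 2.8e-05) at nearly the same fold changes. The shares of all tested genes called in that fit are not given here. The compared groups alone gave calls for Egr1 with IS141 (0.28, adjusted p = 0.0384), for Egr2, Egr3 and Egr4 with AH609 (0.0101, 0.00245 and 0.041) and for Egr2 and Egr3 with AH236 (0.0006 and 4.68e-05).

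**Figure D5:**
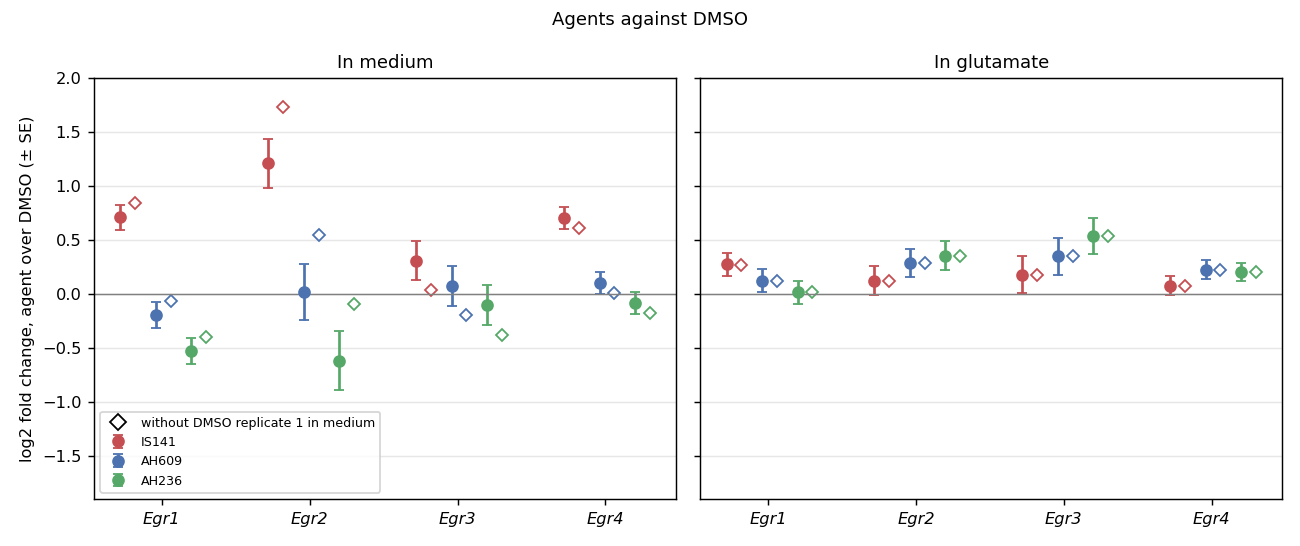
Log2 fold change of each agent over DMSO (± SE) for the 4 Egr genes, in medium (left panel) and in glutamate (right panel); open diamonds give the value without DMSO replicate 1 in medium. IS141 stands highest in medium for each gene, though its Egr3 value was not called, and with glutamate all points lie between 0.02 and 0.54.

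The glutamate effect itself, a fold change over medium, was then compared between treatments with an interaction contrast. With IS141 it was smaller than with DMSO for 1 gene: Egr4 differed by -0.63 ± 0.13 (SE, log2, adjusted p = 0.0185, edgeR), where 0.779% of tested genes were called. This call was lost without IS141 glutamate replicate 1 (-0.58, adjusted p = 0.053), DMSO glutamate replicate 2 (-0.56, adjusted p = 0.066) or IS141 medium replicate 3 (-0.56, adjusted p = 0.0671), and with the compared groups alone (-0.63, adjusted p = 0.0926). For Egr4, IS141 over DMSO was 0.71 in medium and 0.08 with glutamate, so this difference lay mainly in the medium level. The difference of the glutamate effect was -1.09 for Egr2 (adjusted p = 0.0615), -0.44 for Egr1 (adjusted p = 0.275) and -0.13 for Egr3 (adjusted p = 0.94). Without DMSO replicate 1 in medium Egr2 (-1.61, adjusted p = 2.37e-06) and Egr1 (-0.57, adjusted p = 0.0338) were called too, Egr4 stayed called (-0.54, adjusted p = 0.0154), and Egr3 had 0.14. For AH609 minus DMSO, edgeR called 0.0251% of tested genes and DESeq2 called 27 genes in all. The differences were 0.32, 0.27, 0.27 and 0.12 for Egr1 to Egr4, none called by edgeR or DESeq2 and none at an unadjusted p under 0.05, against 7.24% of all tested genes. Without DMSO replicate 1 they were 0.19, -0.26, 0.55 and 0.22, so that Egr2 changed sign, and Egr3 was called (adjusted p = 0.022). For AH236 minus DMSO they were 0.55 (adjusted p = 0.09), 0.97 (0.114), 0.64 (0.235) and 0.29 (0.321), where 1.55% of tested genes were called. None was called by edgeR, and all 4 had an unadjusted p under 0.05, against 14.4% of all tested genes. DESeq2 called 2 of the 4, Egr1 and Egr2, and 441 genes in all. Without DMSO replicate 1 Egr3 was called (0.92, adjusted p = 7.25e-05), while Egr2 had 0.45 (adjusted p = 0.358), Egr1 0.42 (adjusted p = 0.173) and Egr4 0.38 (adjusted p = 0.134). Without DMSO replicate 2 in medium Egr1 (0.69, adjusted p = 0.00946) and Egr2 (1.23, adjusted p = 0.0169) were.

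Comparisons between the agents use no DMSO library in their difference and cover 3 pairs, each with p-values adjusted over all tested genes and not over the pairs. Doses are not given, so it is not known whether they were matched, and no structures are given either. The Egr genes were lower with AH236 than with IS141 in medium for 3 of 4 members, where 7.86% of tested genes were called. Egr2 differed by a log2 fold change of -1.83 ± 0.24 (SE, adjusted p = 0.00013, edgeR), Egr1 by -1.24 ± 0.12 (adjusted p = 8.34e-06) and Egr4 by -0.79 ± 0.10 (adjusted p = 5.77e-05). Egr3 had -0.41 (95% interval -0.80 to -0.03, adjusted p = 0.188), and was called without DMSO replicate 1 (adjusted p = 0.00129). With glutamate the same pair had log2 fold changes of -0.26, 0.23, 0.36 and 0.13 for Egr1 to Egr4. None of these was called by edgeR, where 8.64% of tested genes were called, and DESeq2 called 0 of the 4 and 1569 genes in all. An unadjusted p under 0.05 was reached by 1 of 4, against 23.8% of all tested genes. Egr2 (adjusted p = 0.0304) and Egr3 (0.00222) were called without DMSO replicate 1 in medium. The libraries of all 4 genes lay below IS141 in medium without overlap, as did 15.5% of tested genes. The glutamate effect was larger with AH236 than with IS141 for 3 of 4 genes, against 1.89% of tested genes called. The difference was 2.06 ± 0.27 for Egr2 (adjusted p = 0.000286), 0.98 ± 0.16 for Egr1 (adjusted p = 0.00165) and 0.92 ± 0.13 for Egr4 (adjusted p = 0.000327). For Egr3 it was 0.77 (95% interval 0.25 to 1.299, adjusted p = 0.14, and 7.37e-05 without DMSO replicate 1).

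AH609 in medium also lay below IS141 for the same 3 genes, where 1.13% of tested genes were called. The log2 fold change was -1.19 ± 0.23 (SE) for Egr2 (adjusted p = 0.019, edgeR), -0.91 ± 0.12 for Egr1 (adjusted p = 0.00149) and -0.60 ± 0.10 for Egr4 (adjusted p = 0.0055), and Egr3 had -0.23 (95% interval -0.62 to 0.16, adjusted p = 0.61). The Egr2 call was lost without AH609 replicate 1 (adjusted p = 0.0737) or 2 (0.144) or IS141 replicate 2 (0.0555) or 3 (0.0811), and the Egr4 call without AH609 replicate 2 (0.0639). With glutamate no gene differed past the threshold, at -0.15, 0.16, 0.17 and 0.15 for Egr1 to Egr4. edgeR called 0 of 4 there and 0 of all tested genes (a share of 0%), against 1595 genes at an unadjusted p under 0.05, none of them an Egr gene, and 26 genes by DESeq2. The difference of the glutamate effect, AH609 minus IS141, was 1.36 for Egr2 (adjusted p = 0.0768), 0.76 for Egr1 (0.101), 0.75 for Egr4 (0.0508) and 0.40 for Egr3 (0.9997), where 0.00629% of tested genes, a single gene, were called. None of the 4 was called by edgeR, 3 had an unadjusted p under 0.05, against 5.37% of all tested genes, and DESeq2 called these 3 and 22 genes in all. Without DMSO replicate 1 in medium, Egr2 (adjusted p = 2.12e-05), Egr1 (0.0119) and Egr4 (0.00252) were called.

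No Egr gene was called between AH236 and AH609. In medium the log2 fold change of AH236 over AH609 was -0.33 for Egr1 (95% interval -0.59 to -0.08), -0.64 for Egr2 (-1.22 to -0.05), -0.18 for Egr3 (-0.57 to 0.21) and -0.19 for Egr4 (-0.40 to 0.02). With glutamate it was -0.11 (-0.33 to 0.12), 0.07 (-0.21 to 0.34), 0.19 (-0.17 to 0.55) and -0.02 (-0.20 to 0.16). The differences of the glutamate effect were 0.23, 0.70, 0.37 and 0.16. edgeR and DESeq2 each called 0 of 4 in all 3 comparisons, and 2 genes in medium, 0 in glutamate and 1 for the difference had an unadjusted p under 0.05, against 6.29%, 11.7% and 6.66% of all tested genes. The shares of tested genes called by edgeR were 0.0503% in medium, 0.742% with glutamate and 0% for the difference. DESeq2 called 27, 244 and 36 genes in these, and 1060 had an unadjusted p under 0.05 for the difference. The interval of Egr2 in medium is the widest of these, so near equality and a clearly lower level with AH236 are both allowed.

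The genes whose log2 CPM followed the members most closely over the 24 libraries are known here only by ID. The closest to Egr4 was ENSRNOG00000007607 (Pearson r = 0.997), and ENSRNOG00000008144 was among the 3 closest to both Egr1 (r = 0.991) and Egr2 (r = 0.996). These values mostly restate the split between glutamate and medium, which the libraries share. Within the 12 medium libraries ENSRNOG00000008144 had r = 0.916 with Egr1 and 0.970 with Egr2, and within the 12 glutamate libraries 0.466 and 0.535. ENSRNOG00000007607 had r = 0.866 with Egr4 in medium and 0.835 in glutamate. The log2 fold change of glutamate over medium was 4.05 for ENSRNOG00000008144 and 4.65 for ENSRNOG00000007607. After group means were subtracted, the closest gene reached r = 0.970 for Egr2, 0.933 for Egr3, 0.849 for Egr4 and 0.837 for Egr1, and DMSO replicate 1 in medium lies far from its group mean for Egr2 and Egr3. All of these are descriptions over libraries that share treatments.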

How the data were processed

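RNA was measured in 24 libraries in 8 groups of 3. Groups and replicate numbers came from the sample titles. A pair of AH236 glutamate titles carried the number 2, and the later one is called replicate 3, the title without a number replicate 1. A single matrix of raw gene counts, whole numbers under Ensembl rat IDs, was deposited by the authors. Per the labels' protocols, the RNeasy Mini Kit gave the RNA and NEBNext Ultra II Directional chemistry the libraries. Per the submitters' processing notes, STAR 2.7.8a, RSEM 1.3.3, cutadapt 2.3, FastQC 0.11.8 and bcl2fastq were used with Rnor_6.0. Annotation and strand setting: not given in the sources used here. Since RSEM gives estimates, values may have been rounded before deposit, and reads shared with overlapping genes may be split.

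Counts were tested with edgeR 4.0.16 (R 4.3.3): filterByExpr, TMM, robust dispersions and the quasi-likelihood F test with 1 mean per group over all libraries. There were 23 comparisons, with Benjamini-Hochberg adjustment over 15908 genes within each and a threshold of 0.05. Standard errors were derived from the F statistic and the fold change. Over all genes the common coefficient of variation was 7.49%. Ratios used 0.5 added to each count and 160000 arrangements of labels within treatments. DESeq2 1.42.0, other scalings, no filter, the compared groups alone, a replicate block and leaving out each library were the alternatives.

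The 4 members are always named. Of other genes, those most correlated with a member and averaging at least 1 log2 CPM were to be named, and only some of the top IDs are printed. The 7 pathway lists and 5 marker lists, fixed by symbol, gave no result because 0 IDs matched a symbol. The members and lists were chosen with earlier results of these data known. No replicates were duplicated libraries: counts of each pair in a group differed beyond sampling noise.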

Additional observations from a re-analysis of the deposited data

Results flagged for a closer look

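Of the Egr results, 4 were differences between treatments in the glutamate effect that passed the test of the difference itself (edgeR interaction contrast). The rise of Egr4 with glutamate was smaller with IS141 than with DMSO, by -0.63 on the log2 scale (adjusted p = 0.0185). That call ended without IS141 glutamate replicate 1 (adjusted p = 0.053), DMSO glutamate replicate 2 (0.066) or IS141 medium replicate 3 (0.0671), and with the compared groups alone (0.0926). For Egr4, IS141 over DMSO was 0.71 in medium and 0.08 with glutamate. The rise was larger with AH236 than with IS141 by 0.98 for Egr1 (adjusted p = 0.00165), by 2.06 for Egr2 (adjusted p = 0.000286) and by 0.92 for Egr4 (adjusted p = 0.000327). AH236 over IS141 was -1.24 in medium and -0.26 with glutamate for Egr1, -1.83 and 0.23 for Egr2, and -0.79 and 0.13 for Egr4. All 4 differences thus lay mainly in the medium levels, and none of these levels with glutamate was called different in the shared fit.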

How the results depend on the processing

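Of 1472 values of the 4 genes under the alternatives, 1414 kept their side of the threshold, 45 gained a call, 13 lost one and 0 called values turned round. The 1414 include values that changed sign without being called in either fit. An example is Egr2 in AH609 minus DMSO, at 0.27 and at -0.26 without DMSO replicate 1 in medium. The glutamate response was the most stable: all 344 alternatives of its 20 values kept the call, with an adjusted p of at most 0.0185, and all 162 alternatives of the 6 ratios did.

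Where the fit held the compared groups alone, calls were lost for Egr1 (0.72) and Egr2 (1.23) in IS141 against DMSO in medium, Egr1 (-0.53) in AH236 against DMSO in medium and Egr4 (-0.63) in the difference IS141 minus DMSO. Calls were gained with glutamate against DMSO for Egr1 with IS141 (0.28), Egr2 (0.29), Egr3 (0.35) and Egr4 (0.22) with AH609 and Egr2 (0.34) and Egr3 (0.53) with AH236. They were also gained for AH236 against IS141 for Egr1 (-0.27), Egr2 (0.22) and Egr3 (0.35) with glutamate and Egr3 in medium (-0.42), and for the differences AH236 minus IS141 of Egr3 (0.77) and AH609 minus IS141 of Egr2 (1.36) and Egr4 (0.76). Such a fit uses the spread of fewer libraries. DESeq2 gained the differences AH236 minus DMSO of Egr1 (0.55) and Egr2 (0.98), IS141 minus DMSO of Egr2 (-1.09), AH609 minus IS141 of Egr1 (0.76), Egr2 (1.36) and Egr4 (0.75), and Egr3 in AH236 against DMSO with glutamate (0.54). Without the robust option Egr2 in IS141 minus DMSO (-1.09), Egr3 in AH236 against DMSO with glutamate (0.54) and Egr4 in AH609 minus IS141 (0.75) were gained, and the last also with RLE size factors (0.75) and library totals (0.78). The cause was not tested.

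Leaving out 1 library gave these ranges. Against DMSO in medium, AH236 had -0.67 to -0.40 for Egr1, -0.87 to -0.093 for Egr2 and -0.38 to 0.12 for Egr3. Against DMSO with glutamate, AH236 had 0.33 to 0.39 for Egr2 and 0.49 to 0.61 for Egr3, and AH609 had 0.23 to 0.35 for Egr2 and 0.31 to 0.42 for Egr3. AH236 against IS141 had 0.17 to 0.28 for Egr2 and 0.30 to 0.42 for Egr3 with glutamate, and -0.49 to -0.35 for Egr3 in medium. AH609 against IS141 in medium had -1.39 to -1.04 for Egr2 and -0.71 to -0.53 for Egr4. The difference IS141 minus DMSO was -0.57 to -0.30 for Egr1, -1.61 to -0.84 for Egr2 and -0.70 to -0.54 for Egr4. AH236 minus DMSO was 0.42 to 0.69 for Egr1, 0.45 to 1.23 for Egr2 and 0.42 to 0.92 for Egr3. AH609 minus DMSO was 0.049 to 0.55 for Egr3, AH236 minus IS141 0.72 to 0.85 for Egr3, and AH609 minus IS141 0.66 to 0.85 for Egr1, 1.21 to 1.56 for Egr2 and 0.68 to 0.86 for Egr4. Of the 92 values without DMSO replicate 1 in medium, 16 gained a call and 1 lost it, and the counts of all genes called without this library are not given here.

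Counts of all genes called moved by over 1.5 times in comparisons between treatments. With the compared groups alone, AH236 against DMSO in medium had 87 (1671 in the shared fit), IS141 against DMSO 62 (1269), AH609 against DMSO 3 (487), AH236 against IS141 2087 in medium (1250) and 2437 with glutamate (1375), AH609 against IS141 1000 (179) and 37 (0), and AH236 against AH609 208 (8) and 762 (118). The differences had 18 for AH236 minus DMSO (246), 30 for IS141 minus DMSO (124), 0 for AH609 minus DMSO (4), 991 for AH236 minus IS141 (300), 81 for AH609 minus IS141 (1) and 126 for AH236 minus AH609 (0). DESeq2 gave 441, 209, 27, 463, 22 and 36 for these 6 differences in that order, 27 and 244 for AH236 against AH609, and 369 and 26 for AH609 against IS141 in medium and with glutamate. Without the filter AH609 minus DMSO had 14, AH609 minus IS141 3 and AH236 minus AH609 10. AH609 minus IS141 had 4 with RLE, 13 with library totals and 3 without the robust option.

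Glutamate and medium libraries of a treatment with equal numbers in their titles showed little likeness. Over 10 pairs the correlation of deviations from group means ran from -0.05 to 0.17. These values cannot decide whether such libraries shared a preparation. For AH236 only the titles without a number formed a pair, because a pair of its glutamate titles carried the same number. The replicate block used the title numbers too. With the replicate block the 92 gene values kept their calls, among them Egr1 at 2.29 and Egr2 at 4.48 over all treatments, and the ratios had exact permutation p-values of at most 0.0117 over 10 pairs. The block gave 74 genes for AH236 against AH609 with glutamate, 1 for AH609 against IS141 with glutamate and 5 for AH609 minus IS141. Depth limited Egr2 in medium most, at 38 to 174 reads.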
